A study of Mus musculus with 26 samples.

Results

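The transcripts of myeloperoxidase (Mpo) and of the 4 serine proteases stored with it in primary granules, Elane, Prtn3, Ctsg and Prss57, were followed across 26 mouse RNA-sequencing libraries. The genes were chosen by symbol and are 5 of the 52636 genes in the count files. Each symbol was matched to a single Ensembl identifier, and all 5 genes had reads. The libraries fell into 6 groups. Groups of 4 were made from wild-type and Prss57-/- granulocyte-macrophage progenitors (GMPs) and common myeloid progenitors (CMPs), and groups of 5 from wild-type and Prss57-/- bone marrow-derived mast cells (BMMCs). The label NSP4.KO of the knockout libraries refers to NSP4, the protein made from Prss57.

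The progenitors were sorted from the bone marrow of female littermates as lineage-negative cells with CD117 and CD34 and without SCA-1, GMPs with high and CMPs with low CD16/32. The BMMCs were grown from sorted GMPs in interleukin-3 and stem cell factor and came from male mice. Their libraries belonged to another sequencing run and pool, so sex, run, pool and cell type were confounded wherever mast cells were set against progenitors. The Prss57 deletion was germline and, by the study's account of its strains, removed exon 2 alone. The age of the mice and the meaning of the tag P3 in the BMMC labels were not given in the sources used here.

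Primary or azurophilic granules are the first granules formed in developing neutrophils. Their proteins are made in the promyelocyte and kept in store, so that a mature neutrophil carries the proteins long after the transcripts have gone. MPO makes hypochlorous acid from hydrogen peroxide and chloride. Neutrophil elastase (Elane) and proteinase 3 (Prtn3) cut after small aliphatic residues, cathepsin G (Ctsg) mainly after aromatic residues, and NSP4 (Prss57) after arginine. The proteases are made as inactive precursors that the dipeptidyl peptidase cathepsin C (Ctsc) trims to the active form. Mast cells store a partly different set of proteases, among them chymases, tryptases and carboxypeptidase A3, and cathepsin G is also known from mast cells.

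All positions are from the GENCODE M21 annotation of GRCm38. On chromosome 10, Prss57 (ENSMUSG00000020323) is read on the reverse strand from 79781474 to 79790961, Prtn3 (ENSMUSG00000057729) on the forward strand from 79874476 to 79883174, and Elane (ENSMUSG00000020125) on the forward strand from 79886247 to 79888215. Prtn3 and Elane are thus 3072 bp apart, and Prss57 ends 83514 bp before Prtn3 starts. Mpo (ENSMUSG00000009350) lies on chromosome 11 from 87793581 to 87804413, and Ctsg (ENSMUSG00000040314) on the reverse strand of chromosome 14 from 56099881 to 56102574. Each protease gene has a coding transcript of 5 exons with 254 to 284 codons, and Mpo one of 14 exons with 718 codons. Over the coding sequence, the closest pair was Elane and Prtn3, with 66.4% identical bases, and the most distant was Prtn3 and Prss57, with 60.3%.

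The stretch that encodes the active-site serine shows what the protease genes share. Each coding sequence below is from the annotated transcript, 5′ to 3′, and the capitals mark the codons for aspartate, serine, glycine and glycine, of which the serine attacks the substrate.
Elane: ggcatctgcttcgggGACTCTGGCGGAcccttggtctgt
Prtn3: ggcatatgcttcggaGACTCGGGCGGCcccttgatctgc
Ctsg: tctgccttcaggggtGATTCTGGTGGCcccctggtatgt
Prss57: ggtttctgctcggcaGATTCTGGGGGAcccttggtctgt

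A comparison of the sequences upstream of the genes was made because the members rose together in GMPs. RefSeq promoter windows of GRCm38.p6 were available for 4 members, Mpo, Elane, Prtn3 and Ctsg. The core GAGGAA, recognized by the myeloid transcription factor PU.1, occurred on either strand within 250 bases upstream of the start in all 4, against 23.3% of the 32851 promoters searched. It is shown in capitals on the strand of each gene, with the flanking bases that lie in no annotated exon. The RefSeq starts of Elane, Prtn3 and Mpo lie inside the GENCODE genes, downstream of their first bases.
Elane, chr10:79886197-79886246, forward strand: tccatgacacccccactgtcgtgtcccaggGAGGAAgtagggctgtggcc
Prtn3, chr10:79879542-79879607, forward strand: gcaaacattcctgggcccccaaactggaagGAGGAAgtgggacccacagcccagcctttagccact
Mpo, chr11:87793534-87793580, forward strand: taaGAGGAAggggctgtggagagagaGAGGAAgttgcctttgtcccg
Ctsg, chr14:56102755-56102820, reverse strand: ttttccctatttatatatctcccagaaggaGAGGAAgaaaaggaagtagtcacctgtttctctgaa

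The short MYB core AACNG was also present in 4 of 4 windows, but it occurred in 74.2% of all promoters. The RUNX core TGTGGT was found in 1 of 4 (Ctsg, with 14.05% of all promoters), and the C/EBP pattern TTNNGNAA in 0 of 4 (36.8% of all promoters). A match describes the letters in the window and does not show binding.

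Between 32078404 and 53264762 reads per progenitor library were counted on genes, and between 18627626 and 28647216 per BMMC library. Levels are given as normalized RPKM (nRPKM), the count per length of the gene after scaling by a size factor, as deposited by the authors. The cell labels matched the markers Fcgr3 and Cpa3. Fcgr3, which encodes the CD16 chain, was at 266 to 382 nRPKM in wild-type GMPs and 13.5 to 38.5 in wild-type CMPs. The mast cell gene Cpa3 was between 10304 and 29822 nRPKM in the BMMC libraries. Of 10 mast cell and basophil genes, not all were higher in wild-type BMMCs than in wild-type GMPs. Mcpt8 averaged 187 against 742 nRPKM, Prss34 235 against 1207 and Hdc 151 against 158. The other genes of that list averaged higher in BMMCs. BMMC libraries also held transcripts of other lineages. The summed level of 7 monocyte and macrophage genes averaged 542 nRPKM in wild-type BMMCs, 390 in GMPs and 217 in CMPs. Its genes went both ways. F13a1 (2.33 against 193 nRPKM), Ly86 and Cx3cr1 were lower in wild-type BMMCs than in GMPs. The others were higher, Csf1r at 134 against 48.1 nRPKM and Cd68 at 201 against 30.5. The summed level of 10 later neutrophil genes averaged 919, 2464 and 20.9 nRPKM in the same order. Most of it in wild-type BMMCs was Chil3, at 662 nRPKM against 33.4 in wild-type GMPs. Mmp8, Mmp9 and Ly6g were also higher in wild-type BMMCs than in GMPs. The other genes of this list were lower, S100a8 at 21.6 against 892 nRPKM and Camp at 0.111 against 270. The part of other cells in the cultures was not tested. Several libraries stood apart. Wild-type GMP library 1 and Prss57-/- GMP library 4 were the highest of their groups for the later neutrophil gene S100a8 (1340.3 and 2054 nRPKM), and both favoured short genes, as did Prss57-/- CMP library 2 (slopes of -0.20, -0.16 and -0.35 log2 units per doubling of gene length). Wild-type BMMC library 1 had the highest Mpo of the BMMC libraries, and Prss57-/- BMMC library 3 had the most Cpa3 (29822 nRPKM) and the least of the macrophage gene Csf1r (12.3 nRPKM). Results that rest on these libraries are given with and without them.

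In GMPs, Mpo was the most abundant of all genes by nRPKM in all 8 libraries. The wild-type GMP libraries held 12147, 12309, 11720.4 and 11772 nRPKM of Mpo, and the Prss57-/- GMP libraries held 11258, 11934, 11676 and 11533. The spread was narrow, with a coefficient of variation of 2.39% in wild-type and 2.43% in Prss57-/- GMPs. In wild-type CMPs Mpo was at 1688, 2344, 2791 and 3091 nRPKM, and in Prss57-/- CMPs at 2602, 2008, 3262 and 3499.5. Every GMP library therefore lay above every CMP library, and Mpo ranked between 4 and 49 among all genes in CMPs. The wild-type BMMC libraries held 14.9, 0.364, 0.898, 1.47 and 0.935 nRPKM of Mpo, and the Prss57-/- BMMC libraries 0.480, 1.89, 0.423, 0.787 and 1.23. All BMMC libraries but wild-type library 1 were below 2 nRPKM.

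Elane ranked 2 or 3 among all genes in every GMP library. Wild-type GMPs held 10876, 7423, 7989 and 7664 nRPKM of Elane and Prss57-/- GMPs 6245, 7729, 8140.3 and 10186. In CMPs the level varied more from library to library than that of the other members, with 248, 545, 681 and 1127 nRPKM in wild-type and 376, 982, 1247 and 1830.2 in Prss57-/- libraries. The coefficient of variation was 56.2% in wild-type and 54.4% in Prss57-/- CMPs. In BMMCs Elane was near the detection limit, with 7, 0, 3, 15 and 3 reads in the wild-type and 0, 9, 3, 0 and 8 reads in the Prss57-/- libraries. With 0 reads, up to 3 reads remain possible, and the mean floor in wild-type BMMCs was 0.128 CPM (counts scaled to the library size).

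Prtn3 was at 8002, 5575, 6519.8 and 6339.6 nRPKM in wild-type GMPs and at 4242, 5683, 6364 and 7973 in Prss57-/- GMPs. The CMP libraries were lower, at 964, 1295, 1226 and 2108 nRPKM in wild-type and 922, 2342, 1829.5 and 2307 in Prss57-/- mice. BMMCs held 11.8, 2.55, 3.92, 3.73 and 5.38 nRPKM of Prtn3 in the wild type and 2.81, 3.46, 2.11, 6.34 and 3.29 in Prss57-/- libraries. As for Mpo, wild-type BMMC library 1 was the highest.

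Ctsg was at 6103, 4114, 4129 and 4113 nRPKM in wild-type GMPs and at 3519, 4378, 4106 and 5404 in Prss57-/- GMPs. CMPs had 917, 1159.9, 912 and 1678 nRPKM in wild-type and 822, 2369, 1553 and 1905 in Prss57-/- libraries. Unlike the other members, Ctsg stayed abundant in the mast cell cultures. The wild-type BMMC libraries held 980.0, 1084, 777, 575 and 660.5 nRPKM of it and the Prss57-/- BMMC libraries 931, 677, 1163, 488 and 432. The BMMC and CMP ranges overlapped, and Ctsg ranked between 22 and 101 among all genes in BMMCs, where Mpo ranked between 4734 and 13667.

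Prss57 was the least abundant member in progenitors, with 198, 133, 125 and 123 nRPKM in wild-type GMPs and 17.1, 26.9, 17.0 and 32.0 in wild-type CMPs. In the knockout, the Prss57-/- GMP libraries held 25, 6, 25 and 18 Prss57 reads against 18064 to 26556 in wild-type GMPs, and each Prss57-/- CMP library held 1 read. Wild-type BMMCs held 27, 2, 8, 3 and 12 reads and Prss57-/- BMMCs 0 in each of 5 libraries. The targeted gene thus matched the genotype label in the 16 progenitor libraries. In BMMCs, 2 of the wild-type libraries were at or under the floor of 3 reads.

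**Figure D1:**
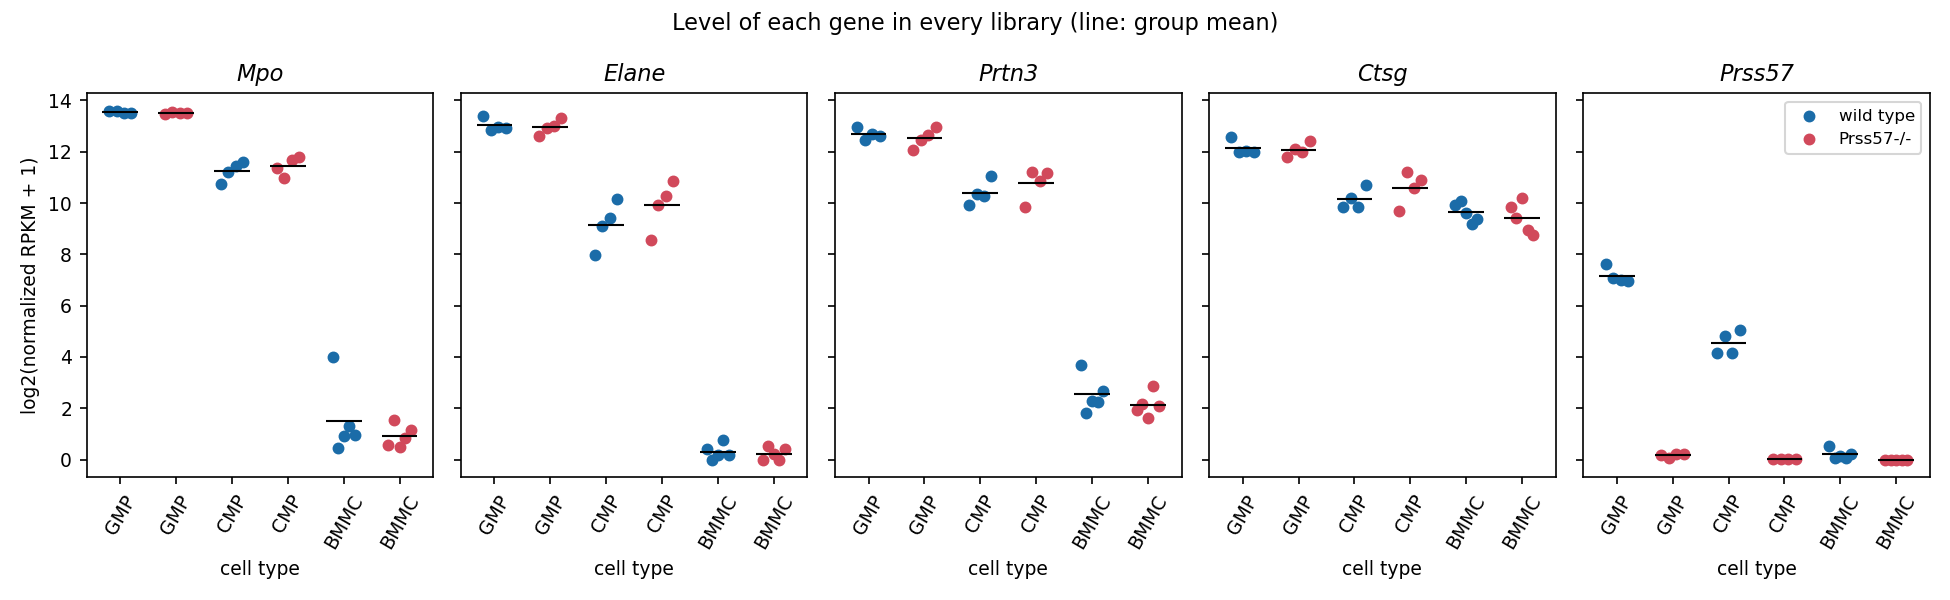
Level of each of the 5 genes in every library, as log2(nRPKM + 1), by cell type and genotype. Points are libraries (4 per progenitor group, 5 per BMMC group) and lines are the mean of the plotted values. Mpo, Elane and Prtn3 drop from GMPs to CMPs and again to BMMCs, whereas Ctsg in BMMCs overlaps with CMPs and Prss57 is near 0 in all Prss57-/- libraries.

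Taken by length-scaled level, the order in wild-type GMPs was Mpo, Elane, Prtn3, Ctsg and Prss57. Neighbouring ranges of Elane and Prtn3, and of Prtn3 and Ctsg, overlapped between libraries, but within each of the 8 GMP libraries Elane exceeded Prtn3 and Prtn3 exceeded Ctsg. In wild-type CMPs the order was Mpo, Prtn3, Ctsg, Elane and Prss57, with overlapping ranges of Prtn3, Ctsg and Elane. In wild-type BMMCs Ctsg was first and Prtn3 and Mpo followed with overlapping ranges. Together the 5 genes took 6.11 to 6.68% of the reads on genes in wild-type GMPs, 0.875 to 1.67% in wild-type CMPs and 0.0536 to 0.102% in wild-type BMMCs. In bulk libraries, fewer cells with a transcript and less transcript per cell cannot be told apart.

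To measure the step between the progenitor stages, GMPs were compared with CMPs on the counts, separately in each genotype. A gene was called where it changed at least 2-fold with an adjusted p below 0.01, by edgeR's quasi-likelihood test and Benjamini-Hochberg adjustment over all genes tested. All 5 members were called higher in wild-type GMPs, where 6.28% of the 14967 genes tested were called higher and 6.53% lower. Elane rose most, by a log2 fold change of 3.72 (standard error 0.40, adjusted p = 6.60e-05, edgeR), which was rank 133 of the genes tested. Prss57 rose by 2.66 (standard error 0.24, adjusted p = 2.19e-05, edgeR), Mpo by 2.29 (standard error 0.19, adjusted p = 1.04e-05, edgeR), Prtn3 by 2.26 (standard error 0.23, adjusted p = 5.01e-05, edgeR) and Ctsg by 2.00 (standard error 0.22, adjusted p = 7.98e-05, edgeR). In ratios of mean nRPKM, Elane was 13.1-fold and Mpo 4.84-fold higher in GMPs. All 5 members had GMP libraries entirely above the CMP libraries, against 15.3% of all genes tested. Without wild-type GMP library 1, the values were 3.60 for Elane and 1.85 for Ctsg, and all 5 members were called. The median log2 fold change was 2.29 over the members and -0.02 over all genes. Scaled by library size alone, the median of all genes shifted by -0.16.

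In Prss57-/- mice, whose libraries are separate from those of the wild type, 3 of the 4 members tested were called higher in GMPs, against 4.04% of the genes tested. Elane rose by a log2 fold change of 2.91 (standard error 0.44, adjusted p = 0.00185, edgeR), Mpo by 2.07 (standard error 0.24, adjusted p = 4.45e-04, edgeR) and Prtn3 by 1.76 (standard error 0.32, adjusted p = 0.00489, edgeR). Ctsg was at a log2 fold change of 1.44 (standard error 0.31) and just missed the threshold, with an adjusted p of 0.0102 from edgeR. It was called under 10 of 12 other settings of the analysis and in 2 of 8 fits that left out 1 library. Prss57 was too low to be tested. The GMP libraries of all 4 members tested lay above the CMP libraries, against 14.5% of all genes. The call of Prtn3 depended on single libraries, since it was lost in 5 of 8 fits that left out 1 library, with adjusted p-values from edgeR of 0.00211 to 0.0197. Without the libraries that stood apart, Ctsg was called, at a log2 fold change of 1.52 with an adjusted p of 0.00622 from edgeR.

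**Figure D2:**
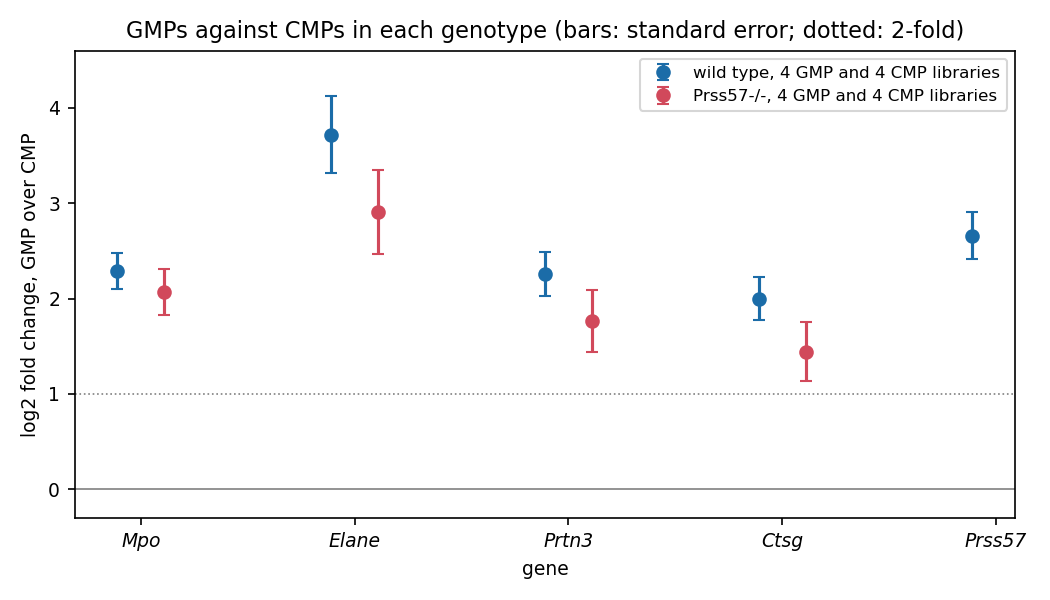
Log2 fold change of GMPs over CMPs for each gene in wild-type and Prss57-/- mice. Points are edgeR estimates from 4 GMP and 4 CMP libraries, bars the standard errors, and the dotted line a 2-fold change; Prss57 could not be tested in the knockout. Elane has the largest change in both genotypes, 3.72 and 2.91.

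The GMP-CMP difference itself did not pass the test for a genotype effect in any member. The interaction was -0.23 for Mpo (standard error 0.27), -0.82 for Elane (0.58), -0.51 for Prtn3 (0.39) and -0.57 for Ctsg (0.38) on the log2 scale. The estimates of all 4 were below 0. Of the 15900 genes in this fit, 0% were called by edgeR at an adjusted p under 0.01, and 169 were below an unadjusted p of 0.05. By limma voom and by DESeq2, 0 genes were called.

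Whether the members rose by the same factor was examined through their ratios within a library, which do not depend on the scaling between libraries. Elane changed relative to each of the others. In wild-type GMPs there were 1.12 to 1.66 units of Mpo per unit of Elane, and in wild-type CMPs 2.74 to 6.79. In Prss57-/- libraries the same ratio was 1.13 to 1.80 in GMPs and 1.91 to 6.92 in CMPs. Elane was 1.21 to 1.36 times Prtn3 in wild-type GMPs and 0.258 to 0.556 times Prtn3 in wild-type CMPs, so their order turned around. The log2 ratio of Elane to Ctsg was higher in GMPs by 1.88 in the wild type and by 1.58 in Prss57-/- mice. For each of these ratios the GMP and CMP libraries did not overlap in either genotype, and the exact two-sided permutation p was 0.0286, the smallest that 4 against 4 libraries allow. Adjusted over the 16 pairs of members and genotypes compared, it was 0.0571, so 0 pairs passed 0.05.

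The ratios of Prtn3 and of Ctsg to Mpo overlapped between GMPs and CMPs. The log2 ratio of Mpo to Prtn3 differed between wild-type GMPs and CMPs by 0.02 (exact permutation p = 0.857) and that of Mpo to Ctsg by 0.30 (exact permutation p = 0.257). Relative to Prss57, Ctsg was lower in GMPs by 0.66 in the wild type (exact permutation p = 0.0286). Prss57-/- CMP library 2 departed from its group, with Prtn3 and Ctsg at 1.17 and 1.18 times Mpo. It is also the library with the strongest excess of short genes, and the transcript of Mpo (2750 bases) is longer than those of Prtn3 (1025 bases) and Ctsg (1002 bases). With a covariate for the dependence on gene length, Elane, Mpo and Prtn3 were called in both genotypes, and Ctsg was also called in Prss57-/- mice (adjusted p = 1.54e-07, edgeR).

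**Figure D3:**
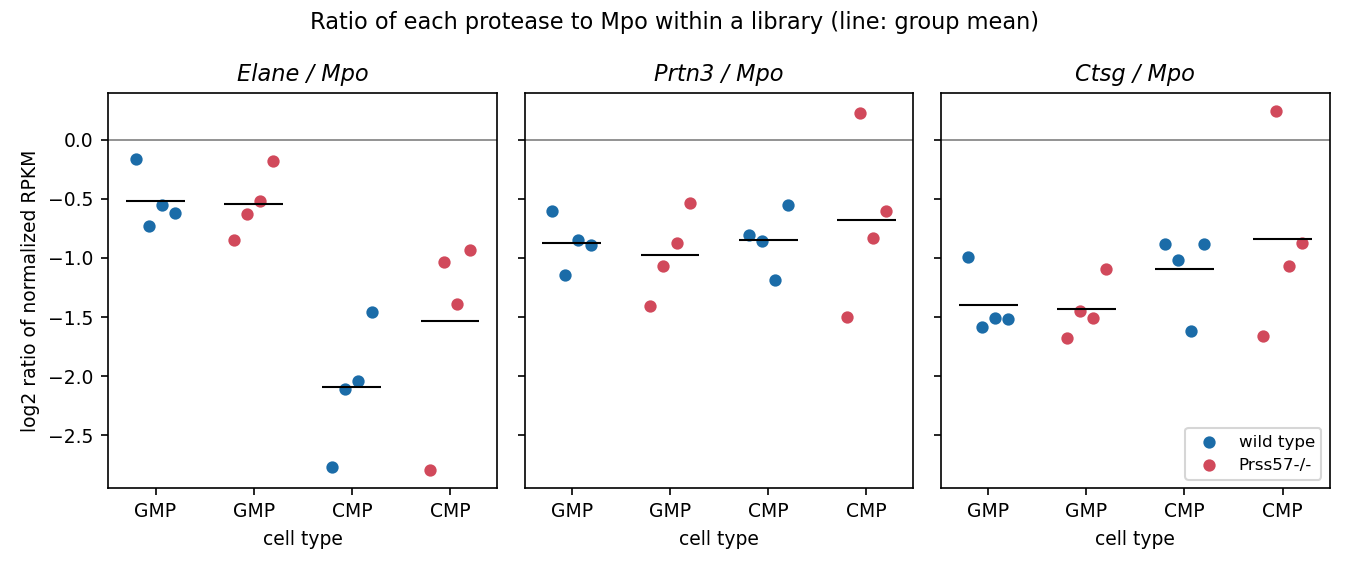
Log2 ratio of Elane, Prtn3 and Ctsg to Mpo in each GMP and CMP library, on nRPKM. Points are libraries, 4 per group, and lines are group means; the grey line marks equal levels. The Elane ratio is lower in every CMP library than in every GMP library of the same genotype, while the Prtn3 and Ctsg ratios overlap.

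The spread of the members among CMP libraries was set against the genes used for the sort, a relation looked at after that spread had been seen. Fcgr3 was at 13.5, 17.3, 19.1 and 38.5 nRPKM in wild-type CMPs and at 11.7, 26.5, 43.0 and 58.8 in Prss57-/- CMPs. Elane was highest in the libraries with most Fcgr3. Over the 8 CMP libraries, Pearson's r of the log2 values was 0.95 (permutation p = 5.46e-04, adjusted p = 0.0109 over 20 relations of 5 sort genes and 4 members) and Spearman's rho was 0.976 (permutation p = 3.97e-04, adjusted p = 0.00794). Without the 2 libraries farthest from the median of Fcgr3, r was 0.923, and within genotypes it was 0.911 in the wild type and 0.99 in Prss57-/- mice. With Fcgr3, r was 0.895 for Prtn3, 0.796 for Ctsg and 0.707 for Mpo, with adjusted permutation p-values of 0.0608, 0.0768 and 0.110. Some other sort genes gave r of like size. With Ly6a, r was 0.830 for Prtn3 and 0.815 for Ctsg, with Fcgr2b 0.790 for Elane, and with Kit -0.791 for Ctsg. Ly6a itself was at a log2 fold change of -0.94 in wild-type GMPs over CMPs and was not called. No relation but that of Elane with Fcgr3 had an adjusted permutation p below 0.05. The values were not corrected for the dependence on gene length, which differed among the CMP libraries. Its slope was 0.33 in Prss57-/- CMP library 1 and -0.35 in Prss57-/- CMP library 2. The part of gene length in these relations was not tested. The summed level of 10 later neutrophil genes was lowest in Prss57-/- CMP library 1 (13.1 nRPKM), the lowest in Fcgr3. It was highest in Prss57-/- CMP library 4 (83.6 nRPKM), the highest in Fcgr3. A relation of this sum with Fcgr3 over the 8 CMP libraries was not tested. The part of GMPs or more mature cells in these libraries was not tested.

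**Figure D4:**
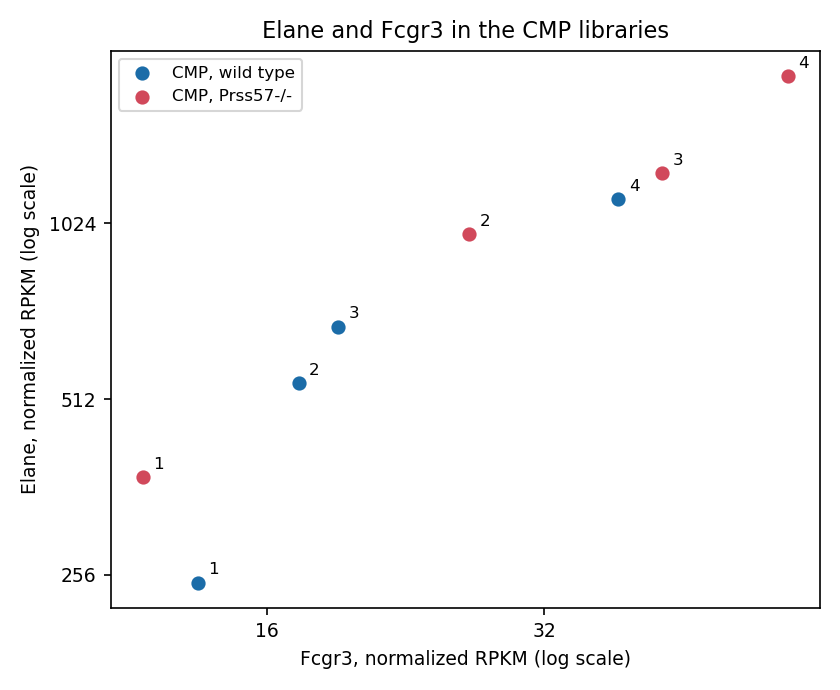
Elane against Fcgr3 in the 8 CMP libraries, both in nRPKM on log scales. Each point is a library, numbered by its replicate. The libraries run from 248 nRPKM of Elane at 13.5 of Fcgr3 to 1830.2 at 58.8.

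Mast cells were compared with the GMPs, the cell type they were grown from, with the caveat on sex and run given above. All 5 members were called lower in wild-type BMMCs than in wild-type GMPs, where 24.4% of the 14754 genes tested were called lower and 27.3% higher. The size of the drop separated Ctsg from the rest. The log2 fold change of Ctsg was -2.60 (standard error 0.21, adjusted p = 1.81e-07, edgeR). That of Mpo was -11.75 (standard error 1.16, adjusted p = 1.34e-06, edgeR), that of Prtn3 -10.33 (standard error 0.45, adjusted p = 1.09e-09, edgeR) and that of Prss57 -9.87 (standard error 0.40, adjusted p = 6.67e-10, edgeR). Elane had the most negative log2 fold change of all genes tested, -15.10 (standard error 0.43, adjusted p = 4.49e-11, edgeR). For Elane and Prss57 the fitted value depends on the handling of libraries with few or 0 reads. From the levels alone, the lowest wild-type GMP library had 10815 times the Elane and 274 times the Prss57 of the highest wild-type BMMC library. In all 5 members the BMMC libraries lay below the GMP libraries, against 34.9% of all genes tested. Without wild-type BMMC library 1, the log2 fold change of Mpo was -13.76 and that of Prss57 -10.63, and without wild-type BMMC library 4, which had the most Elane reads, that of Elane was -15.86.

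Against wild-type CMPs, 4 of 5 members were called lower in wild-type BMMCs, where 27.9% of the 15007 genes tested were called lower and 29.6% higher. The exception was Ctsg, at a log2 fold change of -0.61 (standard error 0.21, adjusted p = 0.0182, edgeR). Its BMMC and CMP libraries overlapped, whereas those of the other 4 members did not, against 36.2% of all genes without overlap in this direction. The log2 fold change of Mpo was -9.47 (standard error 1.04, adjusted p = 2.06e-06, edgeR), that of Elane -11.38 (0.58, adjusted p = 1.72e-09, edgeR), that of Prtn3 -8.09 (0.44, adjusted p = 2.91e-09, edgeR) and that of Prss57 -7.22 (0.42, adjusted p = 5.63e-09, edgeR). Without wild-type BMMC library 1, Mpo was at -11.47 and Prss57 at -7.98, and without wild-type BMMC library 4 Elane was at -12.15. Prss57-/- BMMC library 3, which had the most Cpa3 among BMMCs, also had the most Ctsg, at 1163 nRPKM.

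Loss of Prss57 was not accompanied by a called change in any other member. In GMPs the log2 fold changes of Prss57-/- over wild type were -0.05 for Mpo (standard error 0.08), -0.07 for Elane (0.17), -0.12 for Prtn3 (0.19) and -0.08 for Ctsg (0.17). The signs of the last 3 turned when single libraries were left out. Prss57 was the gene called lower, 0.00681% of the 14689 genes tested, at a log2 fold change of -10.12 (standard error 0.36, adjusted p = 7.78e-07, edgeR). In CMPs the values were 0.18 for Mpo (standard error 0.28), 0.74 for Elane (0.52), 0.38 for Prtn3 (0.34) and 0.49 for Ctsg (0.33). These 4 estimates were above 0 and the genotypes overlapped in all of them. Prss57 was again the gene called lower, 0.0067% of 14916 genes, and was at least 1093.1-fold lower when Prss57-/- CMPs are set at the floor of 3 reads per library. In BMMCs, 0% of the 13938 genes tested were called by edgeR, with 332 genes below an unadjusted p of 0.05, and by limma voom and DESeq2 0 genes were called. The log2 fold change of Mpo there, -1.96 (standard error 0.99, unadjusted p = 0.0751, adjusted p = 1.00, edgeR), rested on wild-type library 1, without which it was 0.07. Ctsg was at -0.15 (standard error 0.29).

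The other genes of granule making and storage had a lower median change than the members. Of 25 such genes, 23 were tested between wild-type GMPs and CMPs. Of these, 7 were called higher, 0 lower and 16 neither, with a median log2 fold change of 0.80. Over all genes tested, 6.28% were called higher and 6.53% lower. Ms4a3, which encodes a membrane protein of granulocyte-monocyte progenitors, rose most, by 3.23 (standard error 0.40, adjusted p = 1.58e-04, edgeR). The lysosomal trafficking regulator Lyst rose by 2.30, the granule membrane tetraspanin Cd63 by 1.70 and the protease inhibitor Slpi by 1.45. Ctsc, which activates the proteases, was at 0.82 (standard error 0.11) and was not called, since the change was under 2-fold. The MPO chaperone gene Calr was called at 1.08 and serglycin (Srgn), the proteoglycan core protein of granules, was at 0.88 and not called. In Prss57-/- mice 4 of 23 were called higher and 0 lower, with a median of 0.61, where 4.04% of all genes tested were called higher.

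In BMMCs the granule genes parted from the members. Against wild-type GMPs, 13 of 24 tested were called higher and 3 lower, beside 27.3% and 24.4% of all genes tested. The median log2 fold change was 1.10 against -10.33 over the members. The genes called lower were Ms4a3 (-9.59), Rab27a, a GTPase of granule secretion (-2.45), and Calr (-2.25). Ctsc was higher in BMMCs by 2.49 on the log2 scale, and the lysozyme gene Lyz2 by 5.48. Serglycin was at 0.11 and was not called.

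Among 10 transcription factor genes of the myeloid lineage, 5 were called higher and 1 lower in wild-type GMPs than in CMPs. The median log2 fold change of the 10 was 1.05. Over all genes tested, 6.28% were called higher and 6.53% lower. Cebpe, a factor of granulocyte maturation, rose by 4.15, Gfi1 by 2.81 and Cebpb by 2.33, and the erythroid factor Gata1 fell by 3.06. Cebpa, required for the formation of GMPs, rose by 1.77 and Spi1, which encodes PU.1, by 1.32. The counts were the same in Prss57-/- mice, 5 higher and 1 lower, where 4.04% of all genes tested were called higher. In BMMCs against wild-type GMPs, 4 were higher and 4 lower, beside 27.3% and 24.4% of all genes tested. Those lower were Cebpe (-5.80), Myb (-4.39), Irf8 (-2.82) and Cebpa (-1.88), and those higher Gata2 (3.37), Gata1 (2.16), Cebpb (1.26) and Runx1 (1.11). Spi1 was at -0.33 and was not called.

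Marker lists of other lineages were read in the same contrast, since progenitor gates hold mixed cells. In wild-type GMPs over CMPs, 8 of 10 later neutrophil genes were called higher (Ltf by 9.87, Camp by 9.04, Chil3 by 8.28 and Ngp by 8.10), with a median of 6.89. All 7 mast cell and basophil genes tested were called higher (Cma1 by 10.49, Prss34 by 7.55, Mcpt8 by 4.58 and Fcer1a by 3.89), as were 3 of 3 eosinophil genes and 4 of 7 monocyte and macrophage genes. In wild-type CMP libraries Cma1 had 0 reads, Ltf 0 to 7 and Chil3 0 to 12, so these fitted values depend on the handling of low counts. Cma1 was also low in wild-type GMPs, at 45 to 352 reads. All 8 erythroid and megakaryocyte genes were called lower (among them Pf4 at -5.04, Car1 at -4.85 and Epor at -4.23). Dntt was called lower, at -6.59, of 2 lymphoid genes tested. Of the 5 sort genes, Fcgr3 (3.79) and Fcgr2b (1.93) were called higher. Over all genes tested in this contrast, 6.28% were called higher and 6.53% lower. The share of each lineage in the members' rise was not tested.

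Of the chromosomal neighbours, 5 were called higher in wild-type GMPs than in CMPs, namely Palm, Tspoap1, Rnf43, Epx and Mcpt8. Rnf126, Fstl3, Ptbp1, Plppr3, Med16, Supt4a and Mks1 were tested and not called. Over all 14967 genes tested, 6.28% were called higher. Epx and Mcpt8 are also on the marker lists of other lineages. On chromosome 10, Palm, which lies between Prss57 and Prtn3, was called higher in wild-type GMPs at a log2 fold change of 1.90. Rnf126, Fstl3, Ptbp1, Plppr3 and Med16 were not called, and Misp and Cfd were too low to be tested. Plppr3 missed the call only by its fold, at a log2 fold change of 0.9998 (adjusted p = 1.36e-04, edgeR). In Prss57-/- mice it was called, at 1.02 (adjusted p = 0.00318, edgeR). In BMMCs against GMPs, Palm was at -4.81 and Plppr3 at -6.26, both called. In Prss57-/- over wild-type libraries, Palm was at -0.98 in GMPs (adjusted p = 0.0311, edgeR), -1.10 in CMPs and -0.86 in BMMCs. Fstl3 was at -0.97 in GMPs and -1.34 in CMPs and was too low to be tested in BMMCs. None of these changes between genotypes was called, and their cause was not tested. The Palm libraries of Prss57-/- and wild-type GMPs did not overlap (24.9 to 31.6 against 49.5 to 64.6 nRPKM). Nor did those of CMPs (5.01 to 9.68 against 14.3 to 17.0 nRPKM), while those of BMMCs overlapped. At an adjusted p under 0.05 without a fold limit, Palm was the gene called in GMPs beside Prss57. Next to Mpo, Tspoap1 (2.96), Rnf43 (1.54) and the eosinophil peroxidase gene Epx (6.99) were called higher in GMPs, while Supt4a and Mks1 were not called and the lactoperoxidase gene Lpo, 2014 bp from Mpo, was too low to be tested. Around Ctsg, Mcpt8, a basophil protease gene 14607 bp away, was called higher in GMPs over CMPs at 4.58 and lower in BMMCs against GMPs at -2.08. The mast cell protease genes Mcpt2 and Mcpt4 held at most 8 reads in a wild-type progenitor library and 2137 to 8800 in a wild-type BMMC library, and both were called higher in BMMCs. On the other side of Ctsg, the granzyme genes Gzme, Gzmd and Gzmg were too low to be tested.

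**Figure D5:**
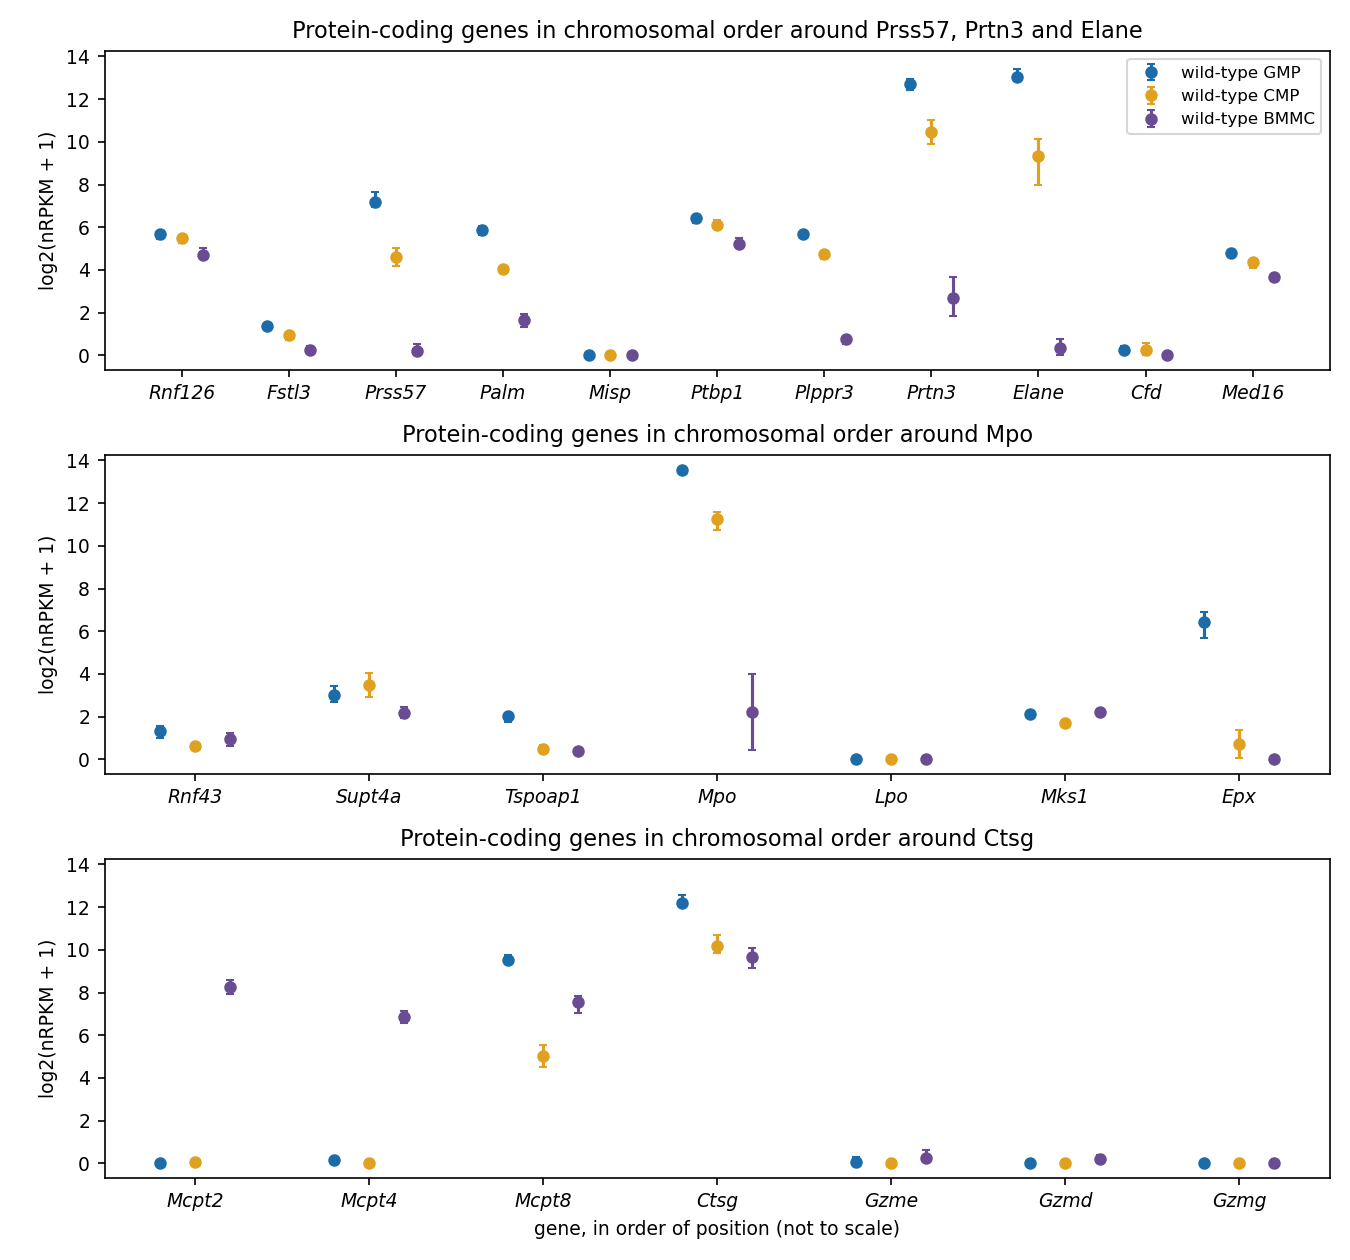
Level of the protein-coding genes around the members, in chromosomal order (not to scale), as log2(nRPKM + 1) in wild-type GMPs, CMPs and BMMCs. Points are group means and bars run from the lowest to the highest library (4, 4 and 5 libraries). Prtn3 and Elane stand far above their neighbours in progenitors. Ctsg sits beside the mast cell protease genes Mcpt2 and Mcpt4, which are high in BMMCs alone, and the basophil protease gene Mcpt8, which is highest in GMPs.

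Overlapping genes limit the counts, because the use of strand in counting was not stated. Prtn3 shares 159 bp with Plppr3 and Prss57 shares 1157 bp with Fstl3, each on the opposite strand. Of the 50-base stretches of Prtn3 6.45% also occur in Plppr3, and of those of Prss57 38.4% occur in Fstl3, both strands counted. Fstl3 was at 1.60 nRPKM on average in wild-type and 0.816 in Prss57-/- GMPs. No 50-base stretch of Elane or Ctsg occurred in another gene, and 9.46% of those of Mpo did.

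The genes with the most similar pattern over the 13 wild-type libraries were sought by the root mean square difference of log2(nRPKM + 1), each gene centred on its mean. For Mpo they were Elane (0.999), Prtn3 (1.03) and Plac8 (1.29), and for Elane they were Mpo, Prtn3 and Plac8. Prtn3 was nearest to Plac8 (0.779), Ms4a3 (0.891) and Nkg7 (0.940). Prss57 was nearest to Trem3 (0.563), Igkc (0.739) and F13a1 (0.748). The nearest genes of Ctsg, 9430069I07Rik, Vcam1 and 1700012B09Rik (0.333 to 0.350), were low genes, with at most 6.84 nRPKM on average in GMPs. The choice depended on the settings, since 8 of the 15 named genes were kept with a pseudocount of 0.1 and 0 over the 16 GMP and CMP libraries.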

How the data were processed

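RNA of sorted GMPs and CMPs and of cultured BMMCs was sequenced as single-end 50-base reads from stranded total RNA libraries. Alignment to GRCm38 was done by the authors with GSNAP, within HTSeqGenie, and uniquely aligned reads in exons were counted. The deposited count of each gene is not normalized. The deposited normalized RPKM equals that count over a gene length constant and a size factor. Aligner versions were not given in the sources used here.

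Counts were compared in R 4.3.3 with edgeR 4.0.16 (TMM, filterByExpr, quasi-likelihood test with robust dispersion) on the libraries of the groups compared, with p-values adjusted (Benjamini-Hochberg) across every tested gene. The call was an adjusted p under 0.01 with a fold change of at least 2, and for the interaction an adjusted p under 0.01. The standard error is the size of the log2 fold change divided by the square root of F. Ratios between members were compared by exact two-sided permutation. The floor was 3 counts per library and covers counting error only. Groups were taken from the labels. The study calls its GMP and BMMC samples biological replicates, and the labels do not tie libraries to mice. Replicate numbers were not used to pair the libraries in the main fits, since in no comparison did every pair of profiles correlate above 0.1. With 4 or 5 pairs this rule cannot exclude a pairing. Libraries of the same number correlated at 0.18 on average between wild-type GMPs and CMPs, against -0.098 for different numbers. The averages were 0.29 against -0.097 in Prss57-/- GMPs and CMPs and 0.27 against -0.11 between genotypes in CMPs. Elsewhere the average for the same number was at most 0.066.

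The members, gene lists and tests were chosen with earlier results of these data known. Named genes were the members, up to 4 called genes per list with the largest change between wild-type GMPs and CMPs, the nearest genes by pattern (at least 1 normalized RPKM in a wild-type group, pseudocount 1) and the neighbours. A gene that this rule names is not reported here. Ctsc, Calr, Srgn, Lyz2, Rab27a and the other transcription factors were named after their values were seen. Alternatives were limma 3.58.1 voom, with and without sample quality weights, DESeq2 1.42.0, other normalizations, filters and thresholds, 26 libraries in 1 fit, a replicate block, and each library left out. Chosen after seeing the data were fits without the libraries that stand apart and with the slope of each library on gene length as a covariate, taken over genes averaging 100 counts or more. Tables, sequences and figures were made in Python 3.11.15 (Biopython 1.88, matplotlib 3.10.9, numpy 2.4.6, pandas 2.3.3, scipy 1.17.1), with GENCODE M21 and RefSeq promoters. The tests were checked on simulated counts.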

Additional observations from a re-analysis of the deposited data

Results flagged for a closer look

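Of 29 combinations of a member and a group tested for a library far from the others (Dixon's ratio), 4 exceeded the 95% critical value, where chance exceeds it in about 1 of 20. Wild-type GMP library 1 was high for Elane (10876 nRPKM, the others 7423 to 7989), Ctsg (6103 nRPKM, the others 4113 to 4129) and Prss57 (198 nRPKM, the others 123 to 133). Its Mpo, at 12147 nRPKM, lay within the group. Wild-type BMMC library 1 was high for Mpo, at 14.9 nRPKM against 0.364 to 1.47. In the same library Prtn3 was at 11.8 nRPKM and Prss57 at 27 reads, both the highest of the BMMC libraries, and Elane at 7 reads was not. Its summed level of later neutrophil genes, 707 nRPKM, was within the range of the group.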

How the results depend on the processing

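The directions of all members between cell types were the same under every alternative run, and all 5 members were called between wild-type GMPs and CMPs under each alternative except the fit of all 26 libraries, where Mpo had an adjusted p of 0.0165 (0.0228 in Prss57-/- mice). Genes called between wild-type GMPs and CMPs numbered 1918, but 5664 at an adjusted p under 0.05 without a fold limit and 3391 with sample quality weights. In Prss57-/- mice 1259 genes became 3222 and 2530 under these settings, 2156 with DESeq2, 2307 with all libraries in 1 fit, 2481 with the length slope, and 785 to 2266 with a library left out. The members called there were 3, but 4 in 9 of the 12 settings that kept every library or left out those that stand apart, 5 when no filter was used, and 2 to 5 with a library left out (5 without Prss57-/- CMP library 1 or 2). Between wild-type BMMCs and GMPs 7630 genes became 12030 without a fold limit. With at least 10 counts in every library, Elane and Prss57 were no longer tested in BMMCs, which left 3 members called against GMPs and 2 against CMPs, and Prss57 in the knockout comparisons, which left 0 members and 0 genes. Otherwise, between genotypes in GMPs 1 gene became 2 without a fold limit, with quality weights and with DESeq2, and 1 to 2 with a library left out. In CMPs 1 gene became 2 with quality weights, 3 with DESeq2 and 2 with the length slope. Signs turned for small differences. Between genotypes in GMPs, Ctsg was at 0.035 with quality weights, and with a library left out ranged from -0.20 to 0.086, Elane from -0.20 to 0.077 and Prtn3 from -0.28 to 0.029. In BMMCs, Mpo was at 0.24 and Prtn3 at 0.032 without the libraries that stand apart, and Mpo at -2.33 to 0.065 with a library left out. The GMP-CMP difference in the ratio of Mpo to Prtn3 with a library left out ranged from -0.080 to 0.13 in the wild type and from -0.0058 to 0.57 in Prss57-/- mice. DESeq2 gave no adjusted p for Mpo in wild-type BMMCs against GMPs or between genotypes in BMMCs. With the exceptions shown by construction, the cause was not tested.

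With a replicate block, 2000 genes were called between wild-type GMPs and CMPs and 1311 in Prss57-/- mice, and 5 and 4 members (Ctsg among the latter, adjusted p = 0.00461 by edgeR). The paired permutation of ratios gave adjusted p-values of at least 0.167. A library correlated best with its own number in 1 of 4 pairs of wild-type GMPs and CMPs and in 1 of 4 in Prss57-/- mice. Between genotypes it did so in 3 of 4 pairs of CMPs, 1 of 4 of GMPs and 1 of 5 of BMMCs.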
